A study of Mus musculus with 8 samples.

Results

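The Slc25 genes encode the mitochondrial carriers, the largest family of transport proteins of the inner mitochondrial membrane, and were taken here as every entry of the count tables whose symbol is Slc25a followed by a number. This rule found 47 of the 47628 entries that name a gene, and 43 of the 47 passed the filter on low counts (a mean normalised count over 10) and were tested. Cochleae were compared between 4 wild-type (WT) mice, WT_4, WT_5, WT_6 and WT_8, and 4 heterozygous Opa1+/- mice, Het_2, Het_7, Het_484 and Het_491. The Opa1+/- mice carry a knock-in of the human delTTAG deletion in 1 allele of Opa1 in all cells of a strain of mixed background (C57BL/6 J × 129 Sv/Pas) and with no driver or inducing agent, and the WT mice were control littermates. All 8 mice were untreated and aged p21, and RNA came from the isolated cochlea as a whole, so that fewer cells of a type and less RNA per cell cannot be told apart. Mice homozygous for the allele die in utero, and the comparison is therefore of 1 mutant allele against none.

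Carriers of the Slc25 family are built from tandem repeats, each with a pair of membrane-spanning helices, and most move one class of solute each: adenine nucleotides, phosphate, amino acids, Krebs cycle acids, cofactors or iron. ATP made in the matrix reaches the cytosol through the ADP/ATP carriers, in exchange for ADP, while the phosphate carrier brings in the phosphate that ATP synthase needs. OPA1 is the dynamin-like GTPase that fuses the inner membrane and shapes the cristae in which these carriers lie, and the cochlea, with its potassium-pumping stria vascularis, its hair cells and its spiking ganglion neurons, is a tissue of high ATP use.

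The tables held 17001431 to 20828030 counts on named genes per WT mouse and 15978051 to 20204154 per Opa1+/- mouse, of which 33072 to 43005 fell on Slc25 genes. Values are CPM, counts scaled to a common library size with TMM factors, and levels of different genes are compared only as CPM per kilobase of annotated exon. Opa1 itself was at 118.66, 125.88, 111.66 and 122.40 CPM in the WT mice, in the order above, and at 63.50, 68.38, 60.40 and 70.02 CPM in the Opa1+/- mice, with a log2 difference of -0.87 ± 0.07 (SE, n = 4 a group, adjusted p = 0.00515, edgeR, with p-values of 19366 genes adjusted together). Xist was at 0 to 0.392 CPM in the 8 mice. The listed markers of hair cells, ganglion neurons, Schwann cells, stria and ligament all passed the filter on low counts, with summed levels that overlapped between the groups. By sign, all 5 Schwann cell markers were higher and all 5 stria markers lower in Opa1+/- mice, with 0 past the adjusted threshold in edgeR. Otor of the ligament and limbus list was lower without overlap (log2 difference -0.51 ± 0.15, SE, adjusted p = 0.722, edgeR). Of all genes tested, 2.33% were lower without overlap. The other genes of that list overlapped, with log2 differences of -0.20 (Coch), 0.23 (Otos) and -0.04 (Otoa). Markers of 4 tissues or cell classes other than the inner ear's own varied between mice. Summed erythroid markers (11 of 12 listed genes present) ran from 7819 to 21557 CPM in WT and from 15160 to 25161 CPM in Opa1+/- mice, and all 11 were higher by sign in Opa1+/- mice. Summed neutrophil and marrow markers (7 of 7) ran from 398.1 to 1304 CPM in WT and from 412.8 to 1063 CPM in Opa1+/- mice, and those of skeletal muscle (7 of 7) ran from 214.6 to 2080 CPM in WT and from 14.6 to 1049 CPM in Opa1+/- mice. Summed brown fat markers (3 of 3 present, with Elovl3 at 0 to 0.511 CPM) ran from 6.03 to 292.3 CPM in WT and from 135.3 to 252.2 CPM in Opa1+/- mice. The part of these cells in the carrier values was not tested.

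Adenine nucleotide and phosphate carriers made up most of the family's transcript in the WT cochlea. Slc25a4, the ADP/ATP carrier ANT1 of heart, muscle and nerve, had the highest level, 197.3 ± 14.4 CPM per kilobase (SD, n = 4), followed by its paralog Slc25a5 (ANT2) at 120.2 ± 1.54 CPM per kilobase and the phosphate carrier Slc25a3 at 43.6 ± 4.66 CPM per kilobase. The ranges of these 3 genes over the 4 WT mice did not overlap with each other or with that of the next gene. Together they held 55.9% of the summed CPM per kilobase of all 47 members, and the first 10 members held 78.1%. The oxoglutarate/malate carrier Slc25a11 (29.8 ± 1.22 CPM per kilobase) and the glutathione carrier Slc25a39 (28.3 ± 2.63) came next, with overlapping ranges. The citrate carrier Slc25a1 (20.4 ± 2.83 CPM per kilobase), the calcium-regulated ATP-Mg/phosphate carrier Slc25a23 (19.4 ± 1.49) and the aspartate/glutamate carrier Slc25a12 (18.2 ± 1.89) overlapped in turn. Slc25a46, a family member of the outer membrane, stood at 13.7 ± 0.479 CPM per kilobase, and the iron carrier Slc25a37 at 13.6 ± 3.83, with overlapping ranges. With the longest transcript in place of the union of exons as the length of a gene, 8 of these 10 stayed among the first 10, Slc25a25 and Slc25a17 taking the places of Slc25a46 and Slc25a37; without WT_4, 9 did, Slc25a51 taking the place of Slc25a37.

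**Figure D1:**
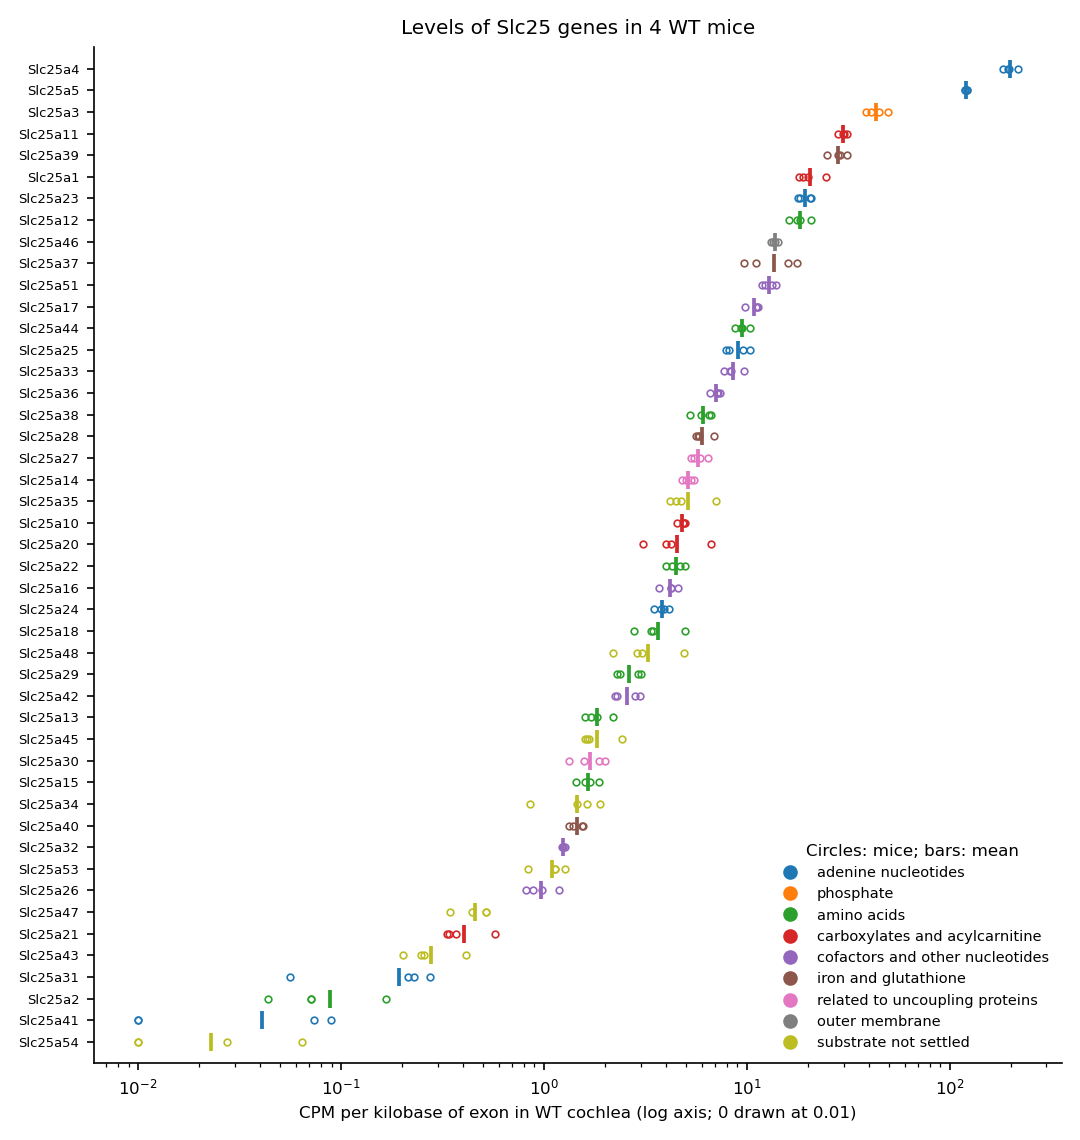
Levels of 46 Slc25 genes in WT cochlea, as CPM per kilobase of exon on a log axis, with 1 circle per mouse (4 mice), a bar at the mean and colours for the transported substrate. Slc25a4 and Slc25a5 lie above 100 CPM per kilobase, the next member, Slc25a3, at 43.6, and the lowest 4 members, Slc25a31, Slc25a2, Slc25a41 and Slc25a54, below 0.3.

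By substrate, the 7 adenine nucleotide carriers held 54.2% ± 1.17 (SD over the 4 WT mice) of the family's summed CPM per kilobase. The 5 carriers of carboxylates and acylcarnitine held 9.29% ± 0.709, the 9 of cofactors and other nucleotides 8.48% ± 0.587, the 4 of iron and glutathione 7.65% ± 0.802, the 9 of amino acids 7.45% ± 0.385 and the phosphate carrier alone 6.74% ± 0.564. The outer membrane member held 2.13% ± 0.138, the 8 members without a settled substrate 2.09% ± 0.228 and the 3 relatives of the uncoupling proteins 1.96% ± 0.0790. In Opa1+/- mice the adenine nucleotide share was 53.6% ± 0.475. Summed over all 47 members, the level was 2101 ± 75.2 CPM in WT mice and 2093 ± 44.2 CPM in Opa1+/- mice, with overlapping groups.

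No Slc25 member passed the adjusted threshold of 0.05 in Opa1+/- against WT cochlea. The count was 0 of 43 with edgeR, where 0.0258% of all 19366 genes tested passed, and 0 of 43 with DESeq2, where 0.129% passed, and the adjusted p of the members ran from 0.722 to 0.998 in edgeR. At an unadjusted p under 0.05 in edgeR, 1 member was lower, Slc25a36, where 3.22% of all genes were, and 1 was higher, Slc25a42, where 3.51% were. In 2 of the 43, Slc25a36 and Slc25a46, all 4 Opa1+/- mice lay below all 4 WT mice, against 2.33% of all genes, and in 0 of the 43 they lay above, against 1.98%. The number higher at an unadjusted p under 0.05 was 0 without WT_8, Het_2, Het_7 or Het_491, where 1.76, 3.48, 3.61 and 2.38% of all genes were, and 4 without WT_5, where 3.38% were. Without WT_4 it was 1 again, Slc25a37 in place of Slc25a42, where 6% of all genes were. The number lower was 2 without WT_6, Het_7 or Het_491, where 3.88, 3.42 and 3.28% of all genes were. The number with all Opa1+/- mice above was 1 without WT_4 or WT_6, where 6.25 and 4.25% of all genes were, and 3 without WT_5, where 3.71% were, since groups of fewer mice overlap less often. All Opa1+/- mice lay below in 3 members without WT_5 or Het_7, where 3.15 and 4.24% of all genes did.

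The members' differences were small. Log2 differences ran from -0.28 to 0.37, with 23 members higher and 20 lower by sign and a median of 0.01, while the median over all genes tested was 3.95e-04. The 95% interval lay within 0.5 of 0 on the log2 scale, which is a 1.41-fold change in either direction, for 33 of the 43 members (76.7%), and for 63.9% of all genes tested. The SE ran from 0.0506 for Slc25a5 to 0.323 for Slc25a47, the latter at 21 counts in its lowest WT mouse. Between WT mice the CV of the members had a median of 10.4%, and between Opa1+/- mice of 7.34%; over all genes tested the medians were 11.5% and 10.5%. WT_6 was the highest WT mouse for 18 of the 43 members and WT_5 for 15.

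**Figure D2:**
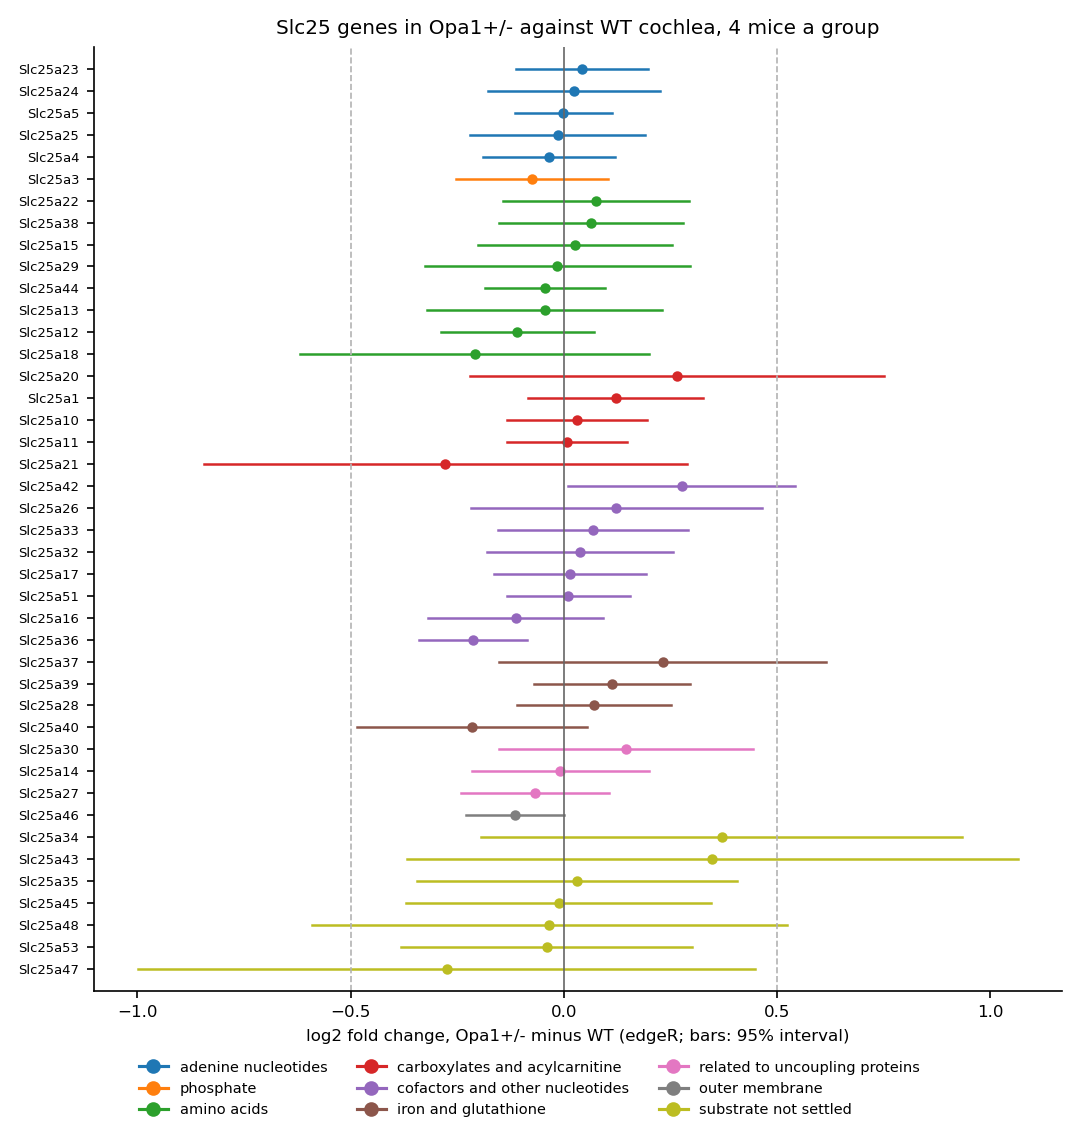
Log2 fold change (Opa1+/- minus WT, edgeR) of 42 tested Slc25 genes, as points with 95% intervals, coloured and grouped by transported substrate, with dashed lines at -0.5 and 0.5. Intervals lie within the dashed lines for 33 genes, and those of Slc25a36 (below 0) and Slc25a42 (above 0) leave out 0.

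Among the adenine nucleotide carriers, the ADP/ATP pair was close to level between the genotypes. Slc25a4 (chromosome 8, 46206797 to 46211284, GRCm38) was at 459.4, 430.1, 510.9 and 456.8 CPM in WT_4, WT_5, WT_6 and WT_8 and at 440.3, 459.6, 434.4 and 478.2 CPM in Het_2, Het_7, Het_484 and Het_491. WT_6 was the highest of the 8 and WT_5 the lowest, and the groups overlapped. Skeletal muscle marker sums were 386.9, 214.6, 2080 and 504.5 CPM in the WT mice and 228.8, 1049, 768.0 and 14.6 CPM in the Opa1+/- mice: WT_6 had the highest sum, but Het_491, with the lowest, had the second highest Slc25a4 level of the 8. The log2 difference was -0.04 ± 0.07 (SE), with a 95% interval from -0.19 to 0.12 and an adjusted p of 0.939 in edgeR. Slc25a5 (X chromosome, 36795651 to 36798807) had the lowest CV of the 43 tested members between WT mice, 1.28%. It was at 195.0, 200.0, 196.4 and 199.9 CPM in them, against 200.5, 194.2, 193.8 and 202.4 CPM in Opa1+/- mice. Its log2 difference was -7.6e-04 ± 0.0506 (SE), with a 95% interval from -0.11 to 0.11. The ratio of Slc25a4 to Slc25a5, both per kilobase, was 1.64 ± 0.132 in WT and 1.60 ± 0.0605 in Opa1+/- mice (SD, n = 4). How the counting treated reads shared by these paralogs is not given in the sources used here; the one pseudogene entry Slc25a5-ps stood at 3.30 ± 0.479 CPM in WT mice and 3.38 ± 0.947 CPM in Opa1+/- mice. Slc25a31, the germ cell ADP/ATP carrier, gave 2 to 12 counts per WT mouse and 2 to 15 per Opa1+/- mouse and was not tested.

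The calcium-regulated ATP-Mg/phosphate carriers, which adjust the adenine nucleotide pool of the matrix, were led by Slc25a23. It was at 102.5 ± 7.91 CPM in WT mice and 105.6 ± 4.29 CPM in Opa1+/- mice, with a log2 difference of 0.04 ± 0.07 (SE). Slc25a25 followed at 9.02 ± 1.16 CPM per kilobase in WT mice and Slc25a24 at 3.83 ± 0.272. Their log2 differences were -0.01 and 0.02, with an SE of 0.09 for each, and all 5 tested members of the adenine nucleotide group had intervals within 0.5 of 0. Slc25a41, which lacks the calcium-binding domain, gave 0 to 2 counts in WT and 0 to 4 in Opa1+/- mice. Where a mouse gave 0 counts, a level of up to 0.146 to 0.191 CPM (3 counts of the scaled total, counting error only) remains allowed.

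The phosphate carrier Slc25a3 (chromosome 10, 91116574 to 91124059), which also brings copper to the matrix, was at 216.0, 227.1, 274.4 and 250.0 CPM in the WT mice and at 224.6, 239.2, 229.2 and 226.0 CPM in the Opa1+/- mice. WT_6 and WT_8 were above every Opa1+/- mouse, WT_4 was below every one, and the Opa1+/- mice lay within the WT range. The log2 difference was -0.07 ± 0.08 (SE), with a 95% interval from -0.25 to 0.10 and an adjusted p of 0.878 in edgeR, and with 1 mouse left out it ran from -0.124 to -0.00817.

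Amino acid carriers were led by Slc25a12 (aralar), the aspartate/glutamate exchanger of the malate-aspartate shuttle in brain and muscle. Its level was 130.0, 119.1, 152.4 and 133.7 CPM in the WT mice and 116.7, 129.9, 123.6 and 125.9 CPM in the Opa1+/- mice. The highest value was again that of WT_6, and the log2 difference was -0.11 ± 0.08 (SE, adjusted p = 0.810, edgeR), with a 95% interval from -0.29 to 0.07. That difference ran from -0.161 (without WT_5) to -0.0407 (without WT_6) with 1 mouse left out. Slc25a13 (citrin), the form of the same exchanger known from liver, was about 10 times lower: the ratio of Slc25a12 to Slc25a13 per kilobase was 9.99 ± 0.514 in WT and 9.53 ± 0.323 in Opa1+/- mice. The glutamate carriers were at 4.49 ± 0.436 CPM per kilobase (Slc25a22) and 3.64 ± 0.934 (Slc25a18) in WT mice. In 4 of 4 mice of each genotype Slc25a22 was the higher of the pair per kilobase, by 1.27 ± 0.192 times in WT and 1.51 ± 0.212 times in Opa1+/- mice, with overlapping groups. Slc25a38, which supplies glycine for the first step of haem synthesis, was at 16.7 ± 1.73 CPM in WT mice and 17.5 ± 1.40 CPM in Opa1+/- mice, and its highest and lowest WT mice, WT_4 and WT_8, were also those with the highest and lowest erythroid sum. In the Opa1+/- mice the order differed: Het_491, with the highest erythroid sum of the 8, was at 16.5 CPM, the lowest Slc25a38 level of its group. The branched-chain amino acid carrier Slc25a44 (9.48 ± 0.689 CPM per kilobase), the basic amino acid carrier Slc25a29 (2.64 ± 0.368) and the ornithine carrier Slc25a15 (1.65 ± 0.179) had log2 differences between -0.04 and 0.03. Slc25a2, the other ornithine carrier, gave 1 to 4 counts per WT mouse and 1 to 5 per Opa1+/- mouse. Of the 8 amino acid carriers tested, 7 had intervals within 0.5 of 0, the exception being Slc25a18 (-0.21, interval from -0.62 to 0.20), whose difference ran from -0.316 (without WT_4) to -0.0272 (without WT_6) with 1 mouse left out.

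Of the carriers of Krebs cycle acids, Slc25a11 and Slc25a1 were among the 10 highest members, while Slc25a10 was at 4.82 ± 0.191 CPM per kilobase in WT mice. The oxoglutarate/malate carrier Slc25a11, the other half-cycle of the malate-aspartate shuttle, was at 63.2 ± 2.59 CPM in WT mice and 63.6 ± 4.24 CPM in Opa1+/- mice, with a log2 difference of 0.01 ± 0.06 (SE) and a 95% interval from -0.13 to 0.15. Slc25a10, which exchanges dicarboxylates for phosphate, was at 16.7 ± 0.659 and 17.0 ± 1.03 CPM, with an interval from -0.13 to 0.19. The citrate carrier Slc25a1, which exports the carbon for lipid synthesis, was at 43.3, 53.0, 41.0 and 39.3 CPM in the WT mice and at 49.7, 46.3, 49.8 and 46.4 CPM in the Opa1+/- mice. WT_5 was the highest of the 8, the other WT mice lay below every Opa1+/- mouse, and the log2 difference was 0.12 ± 0.09 (SE, adjusted p = 0.818, edgeR). With 1 mouse left out it ran from 0.0651 (without WT_8) to 0.222 (without WT_5), with adjusted p above 0.05 in edgeR each time.

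Slc25a20, the carnitine/acylcarnitine carrier that brings long-chain fatty acids to beta-oxidation, had the highest CV between WT mice of its group, 34.2%. It was at 20.6, 32.5, 19.4 and 15.0 CPM in WT_4, WT_5, WT_6 and WT_8 and at 26.9, 27.6, 20.5 and 30.3 CPM in the Opa1+/- mice. Brown fat marker sums in the same mice were 114.5, 292.3, 6.03 and 13.9 CPM and 252.2, 250.5, 135.3 and 232.7 CPM. The highest Slc25a20 level and the highest brown fat sum were both in WT_5, and the lowest Opa1+/- mouse was Het_484 for both, while Het_491, highest of its group for Slc25a20, was not so for brown fat; a part of brown fat in the Slc25a20 level was not tested. Opa1+/- mice differed from WT by 0.27 ± 0.22 on the log2 scale (SE), with an interval from -0.22 to 0.75 and an adjusted p of 0.831 in edgeR. With 1 mouse left out it ran from 0.117 (without WT_8) to 0.523 (without WT_5), with adjusted p above 0.05 in edgeR each time. Slc25a21, the oxodicarboxylate carrier, was the lowest of the group, at 0.404 ± 0.115 CPM per kilobase in WT mice.

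Cofactor and nucleotide carriers held the members with the lowest and the second lowest p of the family. Slc25a36, a carrier that exchanges pyrimidine nucleotides and so serves RNA and DNA synthesis in the matrix, was at 63.6, 70.7, 68.5 and 69.4 CPM in the WT mice and at 58.9, 61.2, 59.4 and 55.3 CPM in the Opa1+/- mice. All 4 Opa1+/- mice lay below all 4 WT mice, with a gap between Het_7 and WT_4 that was smaller than the range of either group. The log2 difference was -0.21 ± 0.06 (SE), with a 95% interval from -0.34 to -0.09, an unadjusted p of 0.00409 and an adjusted p of 0.722 in edgeR; DESeq2 gave an adjusted p of 0.359. An unadjusted p under 0.05 held for Slc25a36 under 18 of 18 alternative fits, with a log2 difference between -0.24 and -0.19, and its adjusted p stayed above 0.05 in each. Slc25a33, its paralog with the same class of substrate, was at 16.1 ± 1.56 CPM in WT mice and 16.9 ± 1.63 CPM in Opa1+/- mice, with a log2 difference of 0.07 ± 0.10 (SE).

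The sequence before the start of Slc25a36 is shown because this gene had the lowest p of the family, with that of Slc25a25, the only other member whose window held the same motif. Windows of 300 bases around RefSeq gene starts (build GRCm38.p6) were found for 36 members, 46 windows in all, and were searched on both strands for TGACGTCA, the full site of CREB-type factors. None of the 3 motifs searched holds another. It was in 4.35% of the members' windows and in 1.79% of all 32851 windows. GCGCATGC, the core of the NRF1 site, was in 4.35% (Slc25a31 and Slc25a54) against 2.71%, and TCAAGGTCA, the site of the ERR receptors, in 0 windows against 0.423%. The count of CG pairs had a median of 15 in the members' windows and of 7 in all windows. The stretches printed hold no annotated exon of their gene (that of Slc25a25 lies inside the gene, before an internal start), are written 5′ to 3′ on the minus strand, and carry the motif in capitals; a match describes these letters only.
Slc25a36, chr9:97111158-97111291: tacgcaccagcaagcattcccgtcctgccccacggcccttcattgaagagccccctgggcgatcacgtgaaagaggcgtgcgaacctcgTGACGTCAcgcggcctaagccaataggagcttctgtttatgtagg
Slc25a25, chr2:32424067-32424316: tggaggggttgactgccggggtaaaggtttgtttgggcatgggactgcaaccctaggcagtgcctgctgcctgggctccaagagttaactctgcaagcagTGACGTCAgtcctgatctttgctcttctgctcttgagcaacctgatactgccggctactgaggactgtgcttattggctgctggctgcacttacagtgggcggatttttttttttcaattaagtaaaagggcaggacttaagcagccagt
The Slc25a36 stretch held 11 CG pairs in 134 bases and the Slc25a25 stretch 4 in 250. Slc25a25, counted over the whole gene and not from this start alone, was at 70.9 ± 9.14 CPM in WT mice and 70.2 ± 3.68 CPM in Opa1+/- mice. Any action of the motif on either gene was not tested.

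Slc25a42, the carrier that brings coenzyme A into the matrix, was at 13.5, 17.8, 16.9 and 13.7 CPM in the WT mice and at 18.3, 21.8, 17.3 and 17.6 CPM in the Opa1+/- mice. Het_2 and Het_7 lay above every WT mouse, while Het_484 and Het_491 lay below WT_5, so the groups overlapped. On the log2 scale the difference was 0.28 ± 0.12 (SE), with an interval from 0.01 to 0.54, an unadjusted p of 0.0436 and an adjusted p of 0.732 in edgeR. Its unadjusted p was under 0.05 in 11 of 18 alternative fits, not in DESeq2's Wald test among others. The log2 difference ran from 0.194 to 0.351 with 1 mouse left out, and that p passed in 3 of these 8 fits. Slc25a16, which has also been linked to coenzyme A, had the opposite sign, -0.11 ± 0.09 (SE). Slc25a51, the NAD carrier, was at 70.9 ± 5.25 CPM in WT mice and 71.4 ± 2.20 CPM in Opa1+/- mice, with an interval from -0.13 to 0.15. The peroxisomal cofactor carrier Slc25a17, the folate and FAD carrier Slc25a32 and the S-adenosylmethionine carrier Slc25a26 had log2 differences of 0.01, 0.04 and 0.12, each smaller than its SE.

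**Figure D3:**
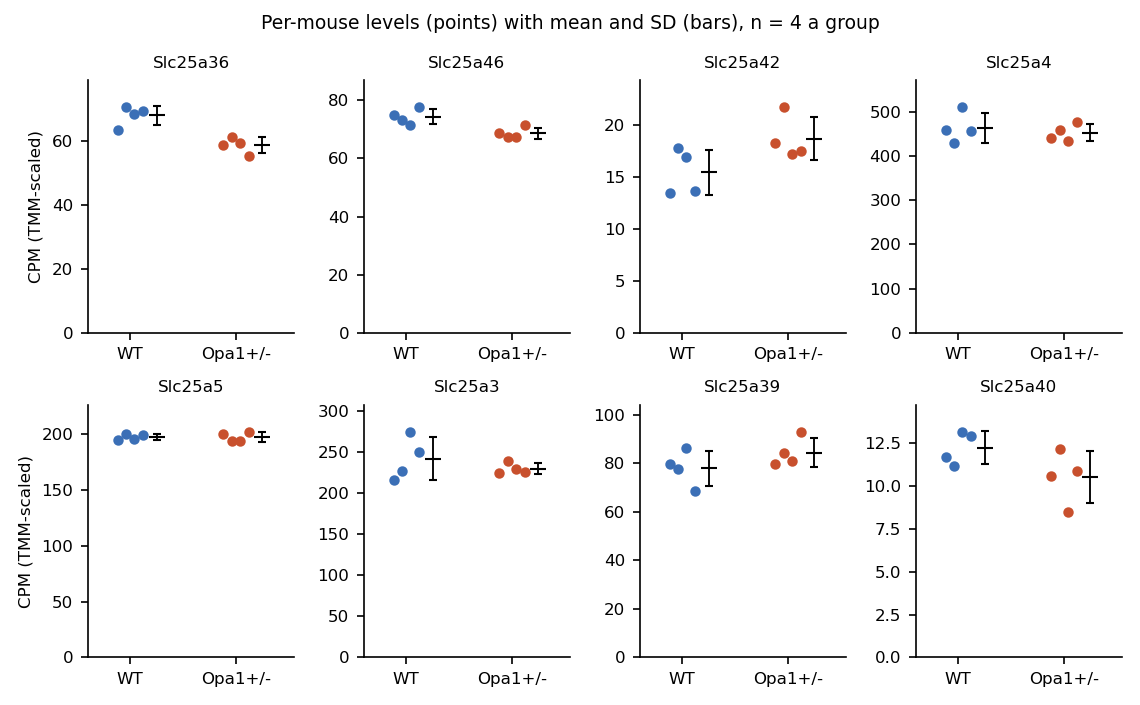
CPM per mouse (points) with mean and SD (bars) for 8 Slc25 genes in 4 WT and 4 Opa1+/- mice, each panel with its own axis from 0. The points of the groups do not overlap for Slc25a36 and Slc25a46 and overlap for the other 6.

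Iron carriers serve haem and iron-sulfur cluster synthesis in the matrix, and the glutathione carriers supply its main thiol. Slc25a37 (mitoferrin 1), the iron carrier of developing red cells, was at 106.7, 95.9, 67.0 and 58.2 CPM in WT_4, WT_5, WT_6 and WT_8, and at 98.3, 94.5, 96.0 and 96.1 CPM in the Opa1+/- mice. The 4 WT mice fell in the same order for Slc25a37 and for the erythroid sum, which was 21557, 12416, 8798 and 7819 CPM, and the Opa1+/- mice, with erythroid sums of 15538, 15160, 18543 and 25161 CPM, were all near the upper WT values of Slc25a37 whatever their erythroid sum; the part of red cell precursors in this was not tested. Opa1+/- and WT mice differed by 0.23 ± 0.17 on the log2 scale (SE, adjusted p = 0.812, edgeR), with an interval from -0.15 to 0.61. With 1 mouse left out it ran from 0.0945 (without WT_8) to 0.386 (without WT_4), with adjusted p above 0.05 in edgeR each time. Slc25a28 (mitoferrin 2), the form of other tissues, was at 22.6 ± 2.17 CPM in WT mice and 23.7 ± 1.27 CPM in Opa1+/- mice, and the ratio of Slc25a28 to Slc25a37 per kilobase ran from 0.328 in WT_4 to 0.618 in WT_6.

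The glutathione carriers, a pair of paralogs, differed widely in level and had opposite signs. Slc25a39 was at 79.6, 77.4, 86.2 and 68.6 CPM in the WT mice and at 79.5, 84.1, 80.8 and 92.9 CPM in the Opa1+/- mice, with a log2 difference of 0.11 ± 0.08 (SE, adjusted p = 0.807, edgeR). Slc25a40 was at 11.7, 11.1, 13.1 and 12.9 CPM in the WT mice and at 10.6, 12.1, 8.48 and 10.9 CPM in the Opa1+/- mice, with a log2 difference of -0.22 ± 0.12 (SE, adjusted p = 0.765, edgeR). Both overlapped between the groups. With 1 mouse left out, the difference of Slc25a39 ran from 0.0534 (without WT_8) to 0.165 (without WT_6) and that of Slc25a40 from -0.294 (without Het_7) to -0.126 (without Het_484). The ratio of Slc25a39 to Slc25a40 per kilobase was 20.7, 21.2, 19.9 and 16.1 in the WT mice and 22.9, 21.1, 29.0 and 26.1 in the Opa1+/- mice. All but Het_7 were above every WT mouse, and Het_7 was below WT_5.

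Slc25a46 is the member that sits in the outer membrane, where it is known to act with the fusion machinery and the cristae-organising complex, and its loss in people gives optic atrophy and neuropathy, as OPA1 variants can. It was at 74.9, 73.2, 71.6 and 77.7 CPM in the WT mice and at 68.8, 67.4, 67.4 and 71.4 CPM in the Opa1+/- mice. The highest Opa1+/- mouse, Het_491, was just below the lowest WT mouse, WT_6. On the log2 scale the difference was -0.11 ± 0.05 (SE), with an interval from -0.23 to 8.6e-04, an unadjusted p of 0.0514 and an adjusted p of 0.741 in edgeR. The unadjusted p was under 0.05 in 4 of 18 alternative fits, among them that with DESeq2's Wald test, and the log2 difference stayed between -0.14 and -0.10 in all 18. The gene lies on chromosome 18 from 31556111 to 31609911, and 383 of its 5425 exonic bases overlap the opposite-strand gene B930094E09Rik; whether the counting used strand is not given in the sources used here.

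The relatives of the uncoupling proteins among the members, whose substrates are less settled, were Slc25a27 (UCP4) at 5.78 ± 0.492 CPM per kilobase in WT mice, Slc25a14 (UCP5) at 5.16 ± 0.302 and Slc25a30 at 1.70 ± 0.300. The neuronal forms Slc25a27 and Slc25a14 had log2 differences of -0.07 ± 0.08 and -0.01 ± 0.09 (SE). Slc25a30 was at 7.25, 9.18, 6.09 and 8.52 CPM in the WT mice and between 8.49 and 8.73 CPM in the Opa1+/- mice, with a log2 difference of 0.15 ± 0.13 (SE). All 3 intervals lay within 0.5 of 0.

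Among members whose substrate is not settled, Slc25a35 had the highest level, 5.12 ± 1.31 CPM per kilobase in WT mice, although 1151 of its 3677 exonic bases overlap the opposite-strand gene Rangrf. Slc25a34 was at 2.28, 3.91, 5.08 and 4.36 CPM in the WT mice and at 4.67, 4.71, 4.02 and 6.83 CPM in the Opa1+/- mice, with the largest log2 difference of the 43 members, 0.37 ± 0.25 (SE, adjusted p = 0.794, edgeR). Its groups overlapped, the interval ran from -0.19 to 0.93, and with 1 mouse left out the difference ran from 0.187 (without WT_4; 0.191 without Het_491) to 0.515 (without WT_6). Slc25a47 and Slc25a43 were at 0.456 ± 0.0829 and 0.279 ± 0.0914 CPM per kilobase, and their intervals, from -0.999 to 0.45 and from -0.37 to 1.07, were the widest of the family. Differences within these intervals could not be told from 0. The parts of depth and of spread between mice in their width were not tested. Slc25a48 (3.25 ± 1.15 CPM per kilobase), Slc25a45 (1.83 ± 0.395) and Slc25a53 (1.09 ± 0.185) had log2 differences between -0.04 and -0.01. Slc25a54 gave 0 to 2 counts per mouse in WT and 0 to 1 in Opa1+/- mice.

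Close neighbours on a chromosome differed in level. In GRCm38, 4 pairs of members lay less than 50000 bases apart, and in each pair 1 gene was several times or more above the other in WT cochlea. Slc25a5 (120.2 CPM per kilobase) lies 18448 bases from Slc25a43 (0.279) on the X chromosome, and Slc25a23 (19.4 CPM per kilobase) lies 2056 bases from Slc25a41 (0.0408) on chromosome 17. Slc25a24 (3.83 CPM per kilobase) lies 6461 bases from Slc25a54 (0.0229) on chromosome 3, and Slc25a29 (2.64 CPM per kilobase) and Slc25a47 (0.456) start 162 bases apart on opposite strands of chromosome 12. Of the 47 members, 4 are X-linked: Slc25a5, Slc25a14, Slc25a43 and Slc25a53.

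**Figure D4:**
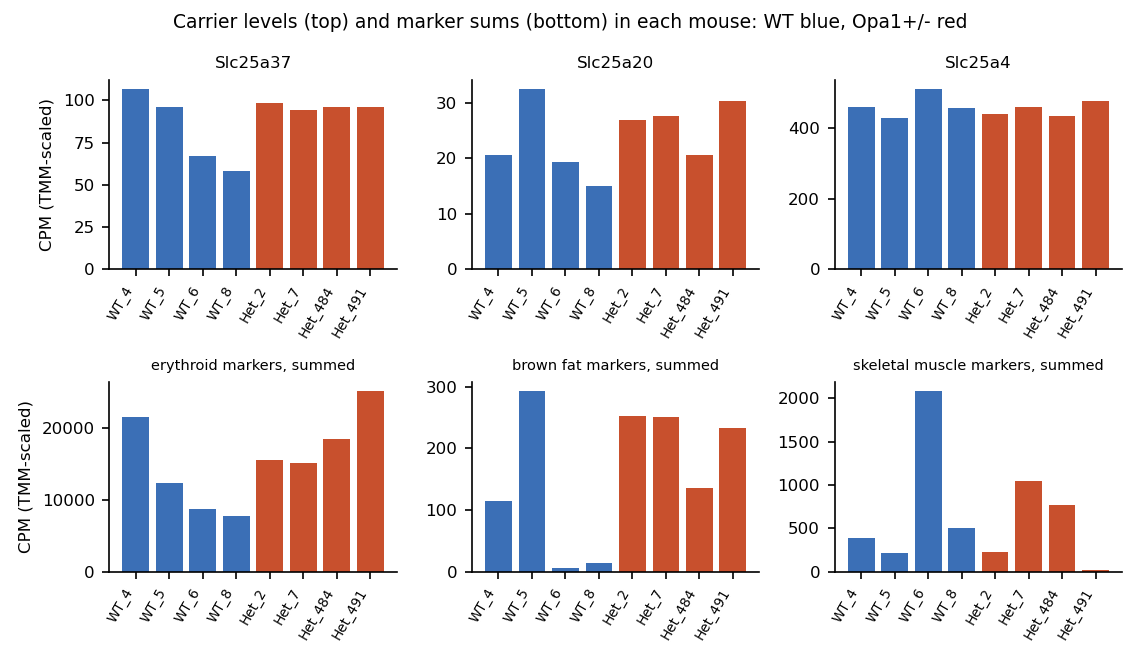
CPM per mouse of Slc25a37, Slc25a20 and Slc25a4 (top) and the summed CPM of erythroid, brown fat and skeletal muscle markers (bottom), with bars from 0 for 4 WT (blue) and 4 Opa1+/- (red) mice. Slc25a37 and the erythroid sum fall in the same order over the WT mice, WT_5 is highest for Slc25a20 and brown fat, and WT_6 for Slc25a4 and muscle, while Het_491 is lowest for muscle and second highest for Slc25a4.

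A list of 13 transport genes that are related to the family but named otherwise held the uncoupling proteins Ucp1, Ucp2 and Ucp3 and the outer membrane members Mtch1 and Mtch2, which belong to the same family, with the pyruvate carrier subunits Mpc1 and Mpc2, the sideroflexins Sfxn1 to Sfxn5 and the cation exchanger Letm1. All 13 were tested, 0 passed an adjusted p of 0.05 in edgeR, 0 passed an unadjusted one (where 3.22% of all genes were lower and 3.51% higher), and 12 were higher by sign, with a median log2 difference of 0.07. Of the 12, Mtch2, Mpc1, Sfxn1, Sfxn3 and Sfxn5 differed by less than their SE, at 0.0055 to 0.054, and the others by more. A shared shift of the list was not tested. Ucp1, the thermogenic protein of brown fat, was at 69.1, 191.8, 1.08 and 6.32 CPM in the WT mice and at 163.0, 174.3, 88.5 and 161.4 CPM in the Opa1+/- mice, with a log2 difference of 1.13 ± 1.04 (SE). It is itself one of the brown fat markers, so its values follow that sum. Sfxn4 was the one gene of the list whose groups did not overlap, at 8.36 to 8.96 CPM in WT mice and 6.80 to 8.30 CPM in Opa1+/- mice. Its log2 difference was -0.18 ± 0.10 (SE, adjusted p = 0.766, edgeR). Of all genes tested, 2.33% were lower without overlap and 1.98% higher.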

How the data were processed

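RNA from isolated cochleae of 4 WT and 4 Opa1+/- mice was extracted with TRI Reagent or an RNeasy microkit (which mouse received which is not given in the sources used here), made into CORALL libraries and sequenced as paired ends. The authors checked reads with FastQC, mapped them to GRCm38/mm10 with STAR and deposited counts per gene for each mouse. Raw data went through Lexogen's CORALL pipeline, and unique molecular identifiers in the adapters served to correct for amplification bias; the counting program, its annotation and its use of strand are not given in the sources used here. Per-mouse counts were read as deposited. Entries with a number in place of a symbol (15, holding 0.112 to 0.124% of counts) were left out. No pair of mice had identical counts. Samples were grouped by the genotype in the labels.

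Genes with a mean count over 10 after DESeq2 size factors were tested (19366) with edgeR's quasi-likelihood test (edgeR 4.0.16, R 4.3.3), TMM factors and Benjamini-Hochberg adjustment over all of them, at 0.05. DESeq2 1.42.0 (with its independent filtering; the study's tool) and limma 3.58.1 voom were alternatives, with other scalings, filters and thresholds, and each mouse left out. The fit was tested on simulated data. Exon lengths and positions came from GENCODE vM21, promoters from RefSeq; figures were drawn with matplotlib. The SE holds counting error together with the spread between mice. For 0 counts, the level that 3 counts would give covers counting error only.

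The members, substrate groups and marker lists were chosen with earlier results of these data known. Values are given for the 10 highest WT levels per kilobase, the 8 lowest p (fewer than 8 were under 0.05), members whose groups do not overlap, and a fixed set of carriers of each substrate; other members named were chosen after their values were seen. The values of 1 member are not reported here; it is counted in the totals and left out of the figures.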

Additional observations from a re-analysis of the deposited data

Results flagged for a closer look

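In each genotype the highest and the lowest mouse of every tested member was compared with the other 3 by the gap to its nearest neighbour over the whole range (against Dixon's 95% critical value for 4 samples). Of the 86 groups examined 3 passed, where chance alone would give about 1 in 20. Slc25a45, without a settled substrate, was at 6.68 CPM in WT_4 and at 4.41 to 4.6003 CPM in the other WT mice. Slc25a21, the oxodicarboxylate carrier, was at 2.80 CPM in WT_4 and at 1.62 to 1.79 CPM in the others. Slc25a28, the iron carrier mitoferrin 2, was at 25.8 CPM in WT_6 and at 21.1 to 21.8 CPM in the others.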

How the results depend on the processing

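No paired analysis was possible because no animal number occurs in both groups. Over 19 alternatives, no named member passed the adjusted threshold (0.1 in one alternative, 0.05 in the rest), the lowest adjusted p being 0.359 (Slc25a36, DESeq2's Wald test). In the 18 that refit the data, 439 of 468 values for 26 named members kept their sign and 29 changed it, in 13 members. Without a change of sign, the difference ran with 1 mouse left out from 0.0159 to 0.145 for Slc25a22, from 0.00431 to 0.0771 for Slc25a23, from -0.109 to -0.0126 for Slc25a27, from 0.0352 to 0.141 for Slc25a28 and from 0.0474 to 0.237 for Slc25a30. The number of members lower at an unadjusted p under 0.05 was 1 as reported and 2 with DESeq2 size factors or DESeq2's Wald test, where 3.55 and 3.07% of all genes were. The number higher was 1 as reported and 0 with that Wald test, where 2.73% of all genes were. With 1 mouse left out, the number lower was 1 to 2 (1.95 to 4.34% of all genes), the number higher 0 to 4 (1.76 to 6%) and the number with all Opa1+/- mice above all WT mice 0 to 3 (2.4 to 6.25%). The latter was 3 with Het_484 and Het_491 both left out, where 5.42% of all genes were, and 4 without WT_6 and WT_8 (added after seeing the data), where 8.11% were. Members with all Opa1+/- mice below all WT mice were 3 without WT_5 or Het_7, where 3.15 and 4.24% of all genes were. They were also 3 without Het_484 and Het_491 (6.89%) and without WT_6 and WT_8 (9.06%), and 2 in every other fit. Over all genes tested, 5 passed the adjusted threshold as reported, 25 with DESeq2's Wald test, 2 with limma voom, 10 with robust estimation, 12 without a filter, 0 to 9 with 1 mouse left out, 0 without Het_484 and Het_491 and 1 without WT_6 and WT_8.

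Signs changed with total counts for Slc25a11 (-0.0197, log2) and Slc25a51 (-0.0144), and with mitochondrially encoded genes left out of the library sizes for Slc25a5 (0.00124). With 1 mouse left out, the log2 difference ran from -0.0358 to 0.0398 for Slc25a11, from -0.0747 to 0.0234 for Slc25a14, from -0.0154 to 0.00865 for Slc25a5, from -0.0700 to 0.0141 for Slc25a4, from -0.107 to 0.0499 for Slc25a13, from -0.0292 to 0.0534 for Slc25a51, from -0.00495 to 0.109 for Slc25a38 and from -0.00608 to 0.0608 for Slc25a10. Without WT_6 and WT_8 together, signs changed for Slc25a1 (-0.00766), Slc25a3 (0.0486), Slc25a37 (-0.0778), Slc25a4 (0.0233), Slc25a13 (0.0469), Slc25a18 (0.00945), Slc25a20 (-0.0185), Slc25a38 (-0.0506) and Slc25a51 (-0.0778). WT_6 and WT_8 were the 2 lowest WT mice for Slc25a1, Slc25a20, Slc25a37, Slc25a38 and Slc25a51 and the 2 highest for Slc25a3, so leaving them out moves those values by construction; for the others the cause was not tested. Intervals were wider than 1 on the log2 scale for Slc25a21, Slc25a34, Slc25a43, Slc25a47 and Slc25a48.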
